A study of Mus musculus with 16 samples.

Results

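Hearts injured by ischaemia and reperfusion, whatever drug the mice also received, were set against sham-operated hearts in their circular RNA content. The injured libraries were those labelled MIRI, MIRI+AICAR and MIRI+Compound C, 13 of the 16 libraries in the series, and the other 3 were Sham. The question was what the 3 injured groups share and where they part.

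The mice were male C57BL/6, and the design states 32 of them in 4 groups of 8. MIRI hearts (3 libraries) had the left anterior descending coronary artery tied for 30 min and then reopened, and were taken 1 week later. MIRI+AICAR hearts (5 libraries) had the same injury with AICAR, a compound that activates AMP-activated protein kinase (AMPK), the energy sensor of the cell. MIRI+Compound C hearts (5 libraries) had the injury with Compound C, an inhibitor of AMPK. Sham hearts (3 libraries) had no ligation. The labels give neither doses nor dosing times and name no vehicle. The labels do not say that libraries of a group came from separate mice, and the p-values below rest on the spread between libraries, part or all of which may be technical.

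A circular RNA (circRNA) forms when the end of an exon is joined backwards to the start of the same or an earlier exon, which leaves a closed loop without free ends. Such loops resist the exonuclease RNase R and have no poly(A) tail. Their amount follows transcription of the host gene, the balance of back-splicing and linear splicing, and slow decay. In the heart, muscle genes with many exons such as titin and the ryanodine receptor are known as rich sources. Reperfusion injury is known to kill muscle cells, to bring leukocytes into the wall and, within days, to switch fibroblasts to matrix production.

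The read that counts a circRNA crosses its back-splice junction. The junctions of 8 circRNAs that the results turn on are printed here 5′ to 3′, in lower case for the last 15 bases of the closing exon and in capitals for the first 15 bases of the opening exon, because these letters are what told each circle from its linear transcript. They come from GENCODE M21 transcripts on GRCm38.
Glis3 (novel_circ_032733): cccaacaagtgtacgGTCCGTTATTTTGCA
Csf2rb2 (novel_circ_022838): tcaccagctagacaaCCACAAAGGATGCAG
Snx13 (novel_circ_014771): atgatggggatggagTGCTTAGAAGAAATG
Slc10a7 (novel_circ_061955): ctcctgctgcttttcGACCACTGAAGCCAG
Pik3c2a (novel_circ_057239): aatgtcatgtttaagGTTGATTTTCCTTCT
Atxn7 (novel_circ_020522): ggctctgccgggaagGAGCGGAAAGAATGT
Cpeb3 (novel_circ_032910): gacattgacaaacggGCTATGCTTTCCTGC
Ddx60 (novel_circ_061744): acaaagttagacttgGTGCTTATAACTGTT

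The Glis3 circle is a single coding exon, exon 4 of ENSMUST00000162022.7, of 1114 bases at chr19:28530873-28531986 on the minus strand. The Cpeb3 circle, at chr19:37044522-37068291 on the minus strand, spans coding exons 8 to 10 of ENSMUST00000079754.10 with 416 bases. The Ddx60 circle spans coding exons 19 to 21 of ENSMUST00000070631.14 with 355 bases, at chr8:61979257-61983943 on the plus strand. The Pik3c2a circle, of 903 bases, spans coding exons 16 to 22 of ENSMUST00000206219.1 at chr7:116358636-116368189 on the minus strand. The Atxn7 circle, of 366 bases at chr14:14013073-14013655 on the plus strand, holds exons 3 and 4 of ENSMUST00000223880.1, part untranslated and part coding. The Csf2rb2 circle, of 364 bases at chr15:78296976-78298378 on the minus strand, holds exons 2 and 3 of ENSMUST00000096356.4, also part untranslated and part coding. The Snx13 circle, at chr12:35085939-35107556 on the plus strand, opens at exon 4 and closes at exon 15 of ENSMUST00000048519.16. The Slc10a7 circle, at chr8:78515586-78663022 on the plus strand, opens at exon 2 and closes at exon 6 of ENSMUST00000034111.9. For Snx13 and Slc10a7 the annotated exons between the ends sum to 1369 and 371 bases, against listed lengths of 1379 and 2540 bases, so their inner exons are not settled.

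Total back-splice counts ran from 124023 to 240889 in injured libraries and from 119948 to 163551 in Sham libraries. Of 68854 circRNAs listed, 40381 had a count in some library, and 7917 were deep enough to test. Levels are CPM, back-splice counts scaled by TMM and by the library's sum over tested circRNAs. The lowest value above 0 in the table is 2 counts and never 1, which means that a single read may stand behind a listed 0. The labels call the cells cardiac muscle cells but describe no isolation. Circles of the titin gene Ttn had 19468 counts over the injured libraries and 4285 over Sham. Circles of macrophage Adgre1 (3224 counts in injured and 398 in Sham) and endothelial Pecam1 (3748 in injured and 761 in Sham) were also present, as in whole tissue. In such tissue, fewer cells of a type and less RNA per cell cannot be told apart. Among injured libraries 2 stood apart, MIRI replicate 1 and MIRI+AICAR replicate 5, in which the summed level of the platelet and megakaryocyte list was 17743 and 5526 CPM, against 1578 to 2189 CPM in the other injured libraries and 1536 to 2081 CPM in Sham libraries. Within that list the defining markers Itga2b, Pf4 and Gp1ba had no counts in any library.

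With the 13 injured libraries as 1 group, edgeR's quasi-likelihood test called no circRNA at an adjusted p under 0.05, which is 0% of those tested. At an unadjusted p under 0.05, 393 circRNAs (4.96% of those tested) were higher and 166 (2.1%) were lower in injured hearts. Voom with quality weights also called none, with 245 higher and 417 lower at an unadjusted p under 0.05, so the direction of the excess turned with the tool. It also turned in edgeR with no filter on low counts, with 1335 higher and 2333 lower. At an adjusted p under 0.05, DESeq2 called 2, Atxn7 novel_circ_020522 lower and Spopl novel_circ_034906 higher. The median log2 fold change over all tested circRNAs was 0.06. Part of the excess of higher circRNAs in the edgeR test lies in those listed at 0 in all 3 Sham libraries. There were 108 of these, 94 of them with an unadjusted p under 0.05, while no tested circRNA was listed at 0 in all 13 injured libraries. A circle that passed the filter through the injured libraries alone had to differ. Among the 7809 circRNAs with a count in at least 1 library of both kinds, 299 were higher and 166 lower at that threshold.

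A stricter look asked which circles separated the libraries completely. Every injured library lay above every Sham library for 38 circRNAs (0.48% of those tested), 8 of which were listed at 0 in all Sham libraries, and every injured library lay below every Sham library for 26 (0.328%). The circles described next were the 8 in each direction with the smallest p, with those whose largest p over the 3 injured groups was smallest. None of them passed the test in the pooled comparison, so their values are given as levels.

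Among circles higher in injured hearts, 3 of the 8 with the smallest p had counts in Sham, those of Glis3, Csf2rb2 and Ldlrad4. The Glis3 circle comes from a zinc finger transcription factor gene. It had 156 CPM in the lowest injured library, a median of 206 CPM and 367 CPM in the highest, against 70.5, 58.3 and 115 CPM in the Sham libraries. All 13 injured libraries lay above all Sham libraries, and the MIRI+AICAR libraries were the highest. The mean was 233 ± 74.7 CPM in injured hearts (SD, n = 13) and 81.2 ± 29.7 CPM in Sham hearts (SD, n = 3), a log2 fold change of 1.51 with an SE of 0.32 and an edgeR adjusted p of 0.0829. Without MIRI replicate 1 the adjusted p was 0.0384, with a log2 fold change of 1.56. The circle passed in 4 of 29 alternative settings, this one among them. Over all of these, run with edgeR, DESeq2 or voom, the adjusted p ran up to 0.731.

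Csf2rb2 encodes a beta chain of interleukin receptors on mouse blood cells, and reads of it may be shared with its close paralog Csf2rb. Its circle had 37.5 CPM in the lowest injured library, a median of 80.3 CPM and 140 CPM in the highest, against 0, 0 and 27.0 CPM in the Sham libraries. Again no injured library overlapped with Sham. The log2 fold change was 3.04 with an SE of 0.64 and an edgeR adjusted p of 0.0829, and the adjusted p was 0.0384 without MIRI replicate 1. This circle passed in 4 of 29 alternative settings. On 184 counts in injured and 4 in Sham libraries the depth-scaled ratio was 8.63, with a counting interval of 3.31 to 32.0 (exact, 95%). All 4 Sham counts lay in Sham replicate 3, so the other Sham libraries alone give no fold. The adjusted p without that library was 0.0246, but Sham was then listed at 0, so this p is no support for a difference. Ldlrad4, whose protein restrains TGF-beta signalling, had a circle with 52.4 CPM in the lowest injured library, a median of 80.3 CPM and 143 CPM in the highest, against 17.6, 29.2 and 27.0 CPM in the Sham libraries. Its log2 fold change was 1.67 with an SE of 0.40 and an edgeR adjusted p of 0.174. For the Csf2rb2 and Ldlrad4 circles no Sham library reached the filter's minimum count of 5. Both passed the filter through the injured libraries alone, so their p-values are no support for a difference.

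The other leading circles were listed at 0 in every Sham library, so that only a lower bound on the fold can be had, set against 3 counts per Sham library (22.9 CPM). The Snx13 circle, from a gene of endosomal sorting, ranged from 18.7 to 88.1 CPM over the 13 injured libraries with a median of 43.6 CPM, and its mean was at least 1.91-fold higher than that floor. For the membrane carrier gene Slc10a7 the injured range was 12.8 to 59.9 CPM with a median of 43.2 CPM, at least 1.70-fold higher. For Pik3c2a, a lipid kinase of vesicle traffic, it was 19.2 to 68.5 CPM with a median of 37.0 CPM, at least 1.64-fold higher. These 3 circles had 90, 81 and 78 counts in injured and none in Sham libraries. Their edgeR adjusted p was 0.0692 each, and 0.0384 without MIRI replicate 1, but they had passed the filter through the injured libraries alone, so these p-values are no support for a difference. The same holds for the others listed at 0 in Sham. Circles of Mindy2, a deubiquitinase gene, and of Hnrnpm, a splicing factor gene, were also present in all 13 injured libraries and no Sham library, at means of 29.0 and 34.0 CPM. The circle of Adam12, a metalloprotease gene of activated fibroblasts, was present in 12 of 13 injured libraries at a mean of 38.5 ± 19.6 CPM (SD, n = 13) and was listed at 0 in MIRI replicate 1 and in Sham.

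**Figure D1:**
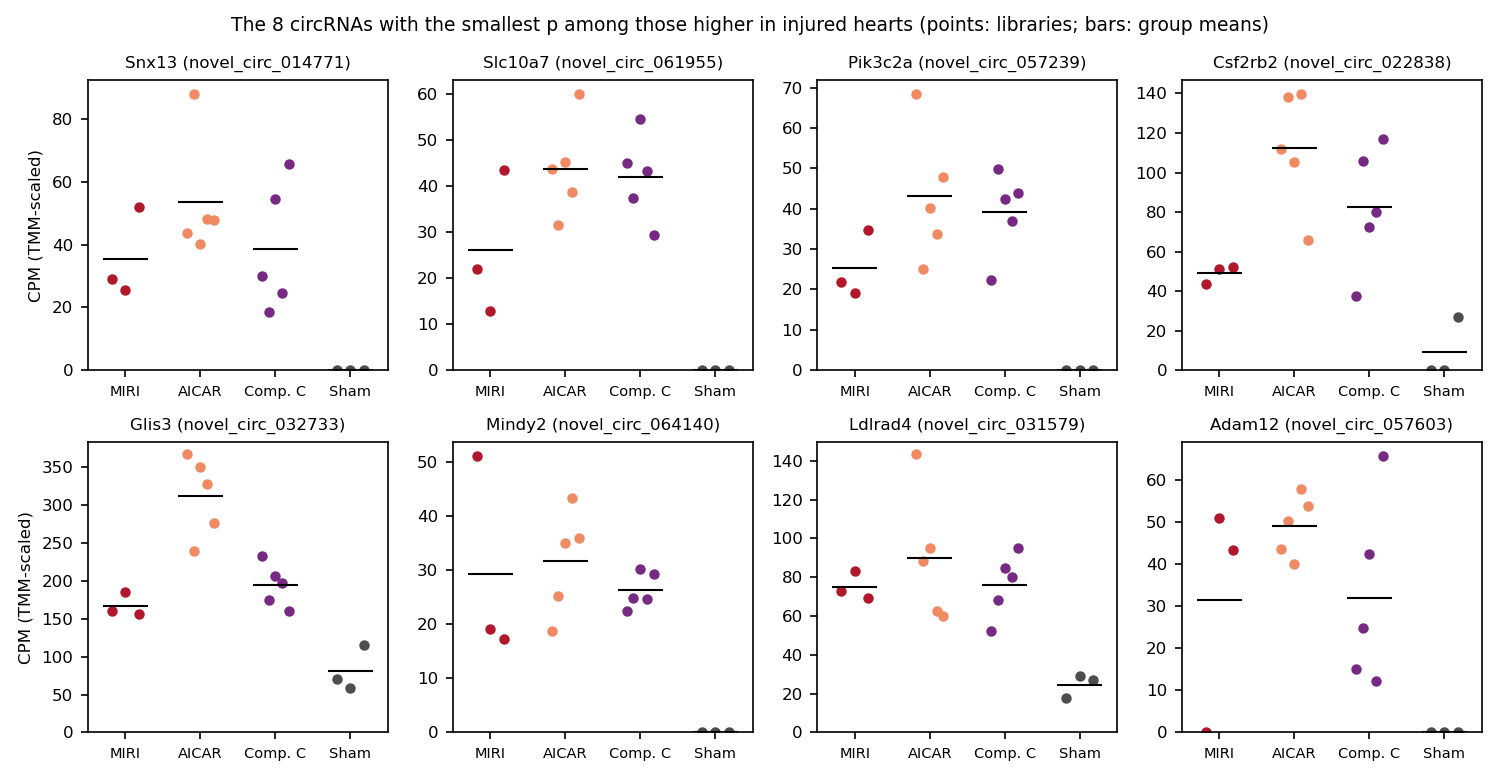
CPM of the 8 circRNAs with the smallest p among those higher in injured hearts, one panel each, in the 3 MIRI, 5 MIRI+AICAR, 5 MIRI+Compound C and 3 Sham libraries. Points are libraries and bars are group means. The Glis3 points of Sham end at 115 CPM and those of injured hearts begin at 156 CPM, and 5 panels have all Sham points at 0.

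Several of the circles lower in injured hearts were abundant and differed by small folds. Atxn7 encodes a subunit of the SAGA complex that modifies histones. Its circle had 1278 CPM in the lowest injured library, a median of 1528 CPM and 1789 CPM in the highest, against 2793, 2034 and 1952 CPM in the Sham libraries. All 13 injured libraries lay below all Sham libraries. The mean was 1523 ± 178 CPM in injured hearts (SD, n = 13) and 2260 ± 464 CPM in Sham hearts (SD, n = 3), with a log2 fold change of -0.57, an SE of 0.13 and an edgeR adjusted p of 0.155.

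The Tpp2 circle, from a peptidase gene, was the other named circle with all 13 injured libraries below Sham. It ranged from 12.8 to 56.0 CPM with a median of 26.0 CPM in injured libraries, against 79.3, 65.6 and 81.1 CPM in the Sham libraries. Its log2 fold change was -1.39 with an edgeR adjusted p of 0.367. This circle would not have passed the filter without the Sham libraries, so this p-value is no support for a difference. The circle of Pdgfb, a growth factor chain that recruits pericytes, had 139 CPM in the lowest injured library, a median of 212 CPM and 321 CPM in the highest, against 317, 416 and 405 CPM in the Sham libraries. A single injured library, MIRI+Compound C replicate 5, reached into the Sham range, and the log2 fold change was -0.73 with an edgeR adjusted p of 0.367. Fancl, a ubiquitin ligase gene of DNA repair, had a circle at 67.9 to 191 CPM in injured libraries, against 203, 262 and 182 CPM in Sham, with 12 of 13 injured libraries below Sham and an adjusted p of 0.367.

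Several lower circles leaned on Sham replicate 1, the shallowest library. The circle of Kitl, the ligand of the Kit receptor, had 36.0 to 147 CPM in injured libraries, against 326, 146 and 122 CPM in Sham replicates 1, 2 and 3. Its log2 fold change was -1.09, and -0.55 without Sham replicate 1. That of Rbm4, an RNA-binding splicing regulator, had 927 to 1612 CPM in injured libraries, against 2326, 1473 and 1391 CPM in Sham, with a log2 fold change of -0.52, and -0.25 without that library. The circle of Ryr2, the calcium release channel of heart muscle, had 19.2 to 59.9 CPM in injured libraries, against 150, 43.8 and 60.8 CPM in Sham, with -1.22, and -0.57 without it. For Msrb3, a methionine sulfoxide reductase gene, the values were -0.44, and -0.13 without it. The Atxn7 circle kept a log2 fold change of -0.39, the Mtmr3 circle (a lipid phosphatase gene) -0.40 in place of -0.52, and the Ehmt1 circle (a histone methyltransferase gene) -0.32 in place of -0.44. The Tpp2 and Fancl circles moved little, to -1.35 and -0.86, and the Pdgfb circle to -0.84.

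**Figure D2:**
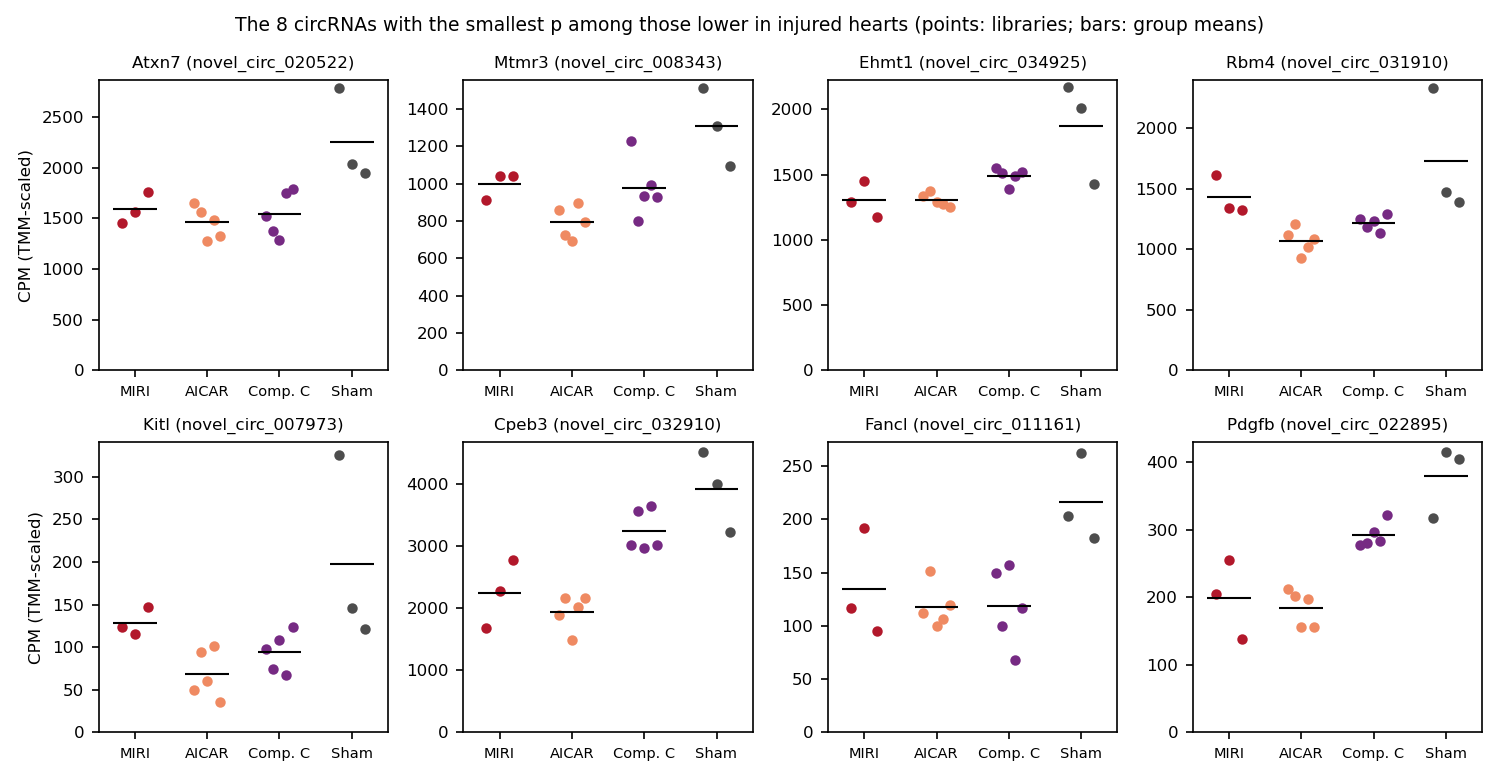
CPM of the 8 circRNAs with the smallest p among those lower in injured hearts, one panel each, in the 3 MIRI, 5 MIRI+AICAR, 5 MIRI+Compound C and 3 Sham libraries. Points are libraries and bars are group means. All 13 injured points of Atxn7 lie below 1952 CPM, the lowest Sham point, while the MIRI+Compound C points of Cpeb3 reach into the Sham range.

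Whether a circle belonged to all injured groups was asked in a fit of the 4 groups, in which each injured group was set against the same 3 Sham libraries. MIRI against Sham called 2 circRNAs (0.0253% of those tested), MIRI+AICAR against Sham called 37 (0.467%) and MIRI+Compound C against Sham called none (0%), so no circRNA was called in all 3. For MIRI+Compound C against Sham 409 circRNAs had an unadjusted p under 0.05, and DESeq2 called 1 and voom none. At an unadjusted p under 0.05 in each of the 3 groups, 105 circRNAs (1.33%) were higher in all and 11 (0.139%) lower in all. Of the 105 higher circRNAs 57 had a count in at least 1 Sham library. The groups differed in size, and a call in one and not in another does not show that they differ. The test of the difference among the 3 injured groups called 28 circRNAs (0.354%).

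The Atxn7 circle had nearly the same value in each group, with log2 fold changes against Sham of -0.50 ± 0.17 in MIRI, -0.63 ± 0.14 in MIRI+AICAR and -0.55 ± 0.15 in MIRI+Compound C (± SE). For the Glis3 circle these were 1.02 ± 0.31, 1.92 ± 0.27 and 1.23 ± 0.28, and the edgeR adjusted p of the difference among injured groups was 0.0968. For the Ldlrad4 circle they were 1.56 ± 0.49, 1.80 ± 0.43 and 1.58 ± 0.45. The Csf2rb2 circle had 2.21 ± 0.74, 3.40 ± 0.60 and 2.96 ± 0.63. A p among groups that misses the threshold does not show that the groups act alike.

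Circles of Ddx60 and Cpeb3 did differ among the injured groups. Ddx60 encodes an RNA helicase induced by interferon, and its circle was named after its values were seen, as a call of the equal-weight fit below. It had 219, 364 and 416 CPM in MIRI libraries, 367, 327, 386, 420 and 479 CPM in MIRI+AICAR libraries and 854, 1767, 896, 1093 and 1775 CPM in MIRI+Compound C libraries, against 1189, 1947 and 1790 CPM in Sham. The MIRI and MIRI+AICAR libraries were all below Sham, while the MIRI+Compound C libraries overlapped with it. The log2 fold changes against Sham were -2.31 ± 0.27, -2.05 ± 0.22 and -0.37 ± 0.22, and the adjusted p of the difference among injured groups was 1.70e-06.

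Cpeb3 encodes a binding protein of messenger RNAs that controls their translation. Its circle had 1685, 2279 and 2773 CPM in MIRI libraries, 1887, 2159, 1488, 2025 and 2164 CPM in MIRI+AICAR libraries and 3011, 3565, 2962, 3642 and 3016 CPM in MIRI+Compound C libraries, against 4520, 3995 and 3222 CPM in Sham. As for Ddx60, the MIRI+Compound C libraries were the injured ones nearest to Sham, with log2 fold changes of -0.80 ± 0.17, -1.01 ± 0.15 and -0.27 ± 0.15 against Sham and an adjusted p of 0.0113 among injured groups. The pooled log2 fold change of -0.64 of this circle, and that of -1.19 of the Ddx60 circle, average over groups that differed.

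Giving each injured group the same weight in the 4-group fit, which takes the differences among them out of the error, called 3 circRNAs (0.0379% of those tested). The Glis3 circle rose with a log2 fold change of 1.39 and an adjusted p of 0.0201. The Cpeb3 circle fell by 0.69 with an adjusted p of 0.0201. The Ddx60 circle fell by 1.58 with an adjusted p of 1.7e-05. Of these, only the Glis3 circle had all 13 injured libraries on one side of Sham.

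**Figure D3:**
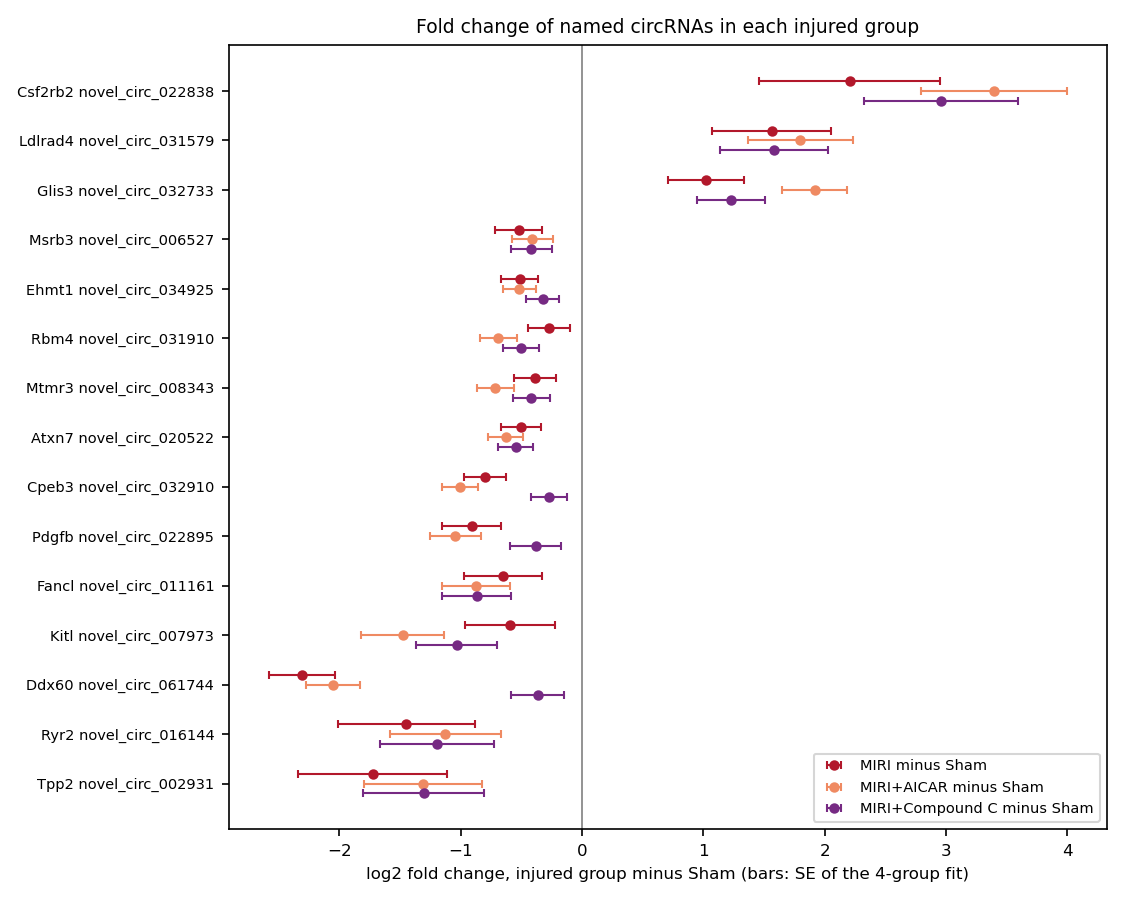
Log2 fold change against Sham of the named circRNAs with a Sham count, in rows, with a point for MIRI, MIRI+AICAR and MIRI+Compound C each and bars for the SE of the 4-group fit. The 3 points of Atxn7 lie between -0.63 and -0.50, while those of Ddx60 run from -2.31 in MIRI to -0.37 in MIRI+Compound C.

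Summing all circles of a host gene gave deeper counts for 3699 genes. The pooled edgeR test called none (0%), with 203 genes (5.49%) higher and 105 (2.84%) lower at an unadjusted p under 0.05. Voom with quality weights called none as well and DESeq2 called Glis3 and Atxn7. Every injured library lay above every Sham library for 23 genes (0.622%) and below for 17 (0.46%).

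Bnc2 and Glis3 were nearest to the threshold, each with an adjusted p of 0.0511. Without MIRI replicate 1, Bnc2 and Glis3 were called at an edgeR adjusted p of 0.00857 each, as were Col3a1 (0.0110), Adam12 and Csf2rb2 (0.0280 each), and Mtr and Atxn7 (0.0484 each). Over 29 alternative settings each of these genes passed in 3 to 8. For Bnc2, Col3a1, Adam12 and Csf2rb2 no Sham library reached the filter's minimum count of 5. These sums passed the filter through the injured libraries alone, so their p-values are no support for a difference. Bnc2, a zinc finger gene of mesenchymal cells, had 27.1 to 145 CPM in injured libraries with a median of 94.1 CPM, against 0, 0 and 12.8 CPM in Sham. On 195 counts in injured and 2 in Sham libraries, the depth-scaled ratio of injured to Sham counts was 18.3, with a counting interval of 4.99 to 152 (exact, 95%). Glis3 had 298 to 760 CPM in injured libraries with a median of 416 CPM, against 155, 197 and 230 CPM in Sham, and a log2 fold change of 1.30 with an SE of 0.26. All 4 tested Glis3 circles were higher, with log2 fold changes between 0.71 and 2.19, but they make up the sum and are no separate support. The sum for Glis3 also differed among injured groups (adjusted p 0.0113), with 0.81 ± 0.23 in MIRI, 1.66 ± 0.20 in MIRI+AICAR and 1.10 ± 0.21 in MIRI+Compound C.

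Mtr, the methionine synthase gene, had a narrow Sham range of 94.5, 95.2 and 89.3 CPM. In injured libraries it had 141 to 257 CPM with a median of 203 CPM, all of them above Sham. Its log2 fold change was 1.10 with an SE of 0.24 and an adjusted p of 0.0903. All 4 of its tested circles were higher, but 1 was listed at 0 in all 3 Sham libraries and another in 2. The circles also make up the sum, so their direction is no separate support. Atxn7 sums had 1738 to 2397 CPM in injured libraries, against 3444, 2530 and 2512 CPM in Sham, with a log2 fold change of -0.50 and an adjusted p of 0.0959. Of the 6 tested Atxn7 circles 4 were lower and 2 higher, so the sum followed its main circle. Pdgfb sums (-0.79, adjusted p 0.215) and those of Pdzd2, a gene of a PDZ domain protein (-0.57, adjusted p 0.249), also had all 13 injured libraries below Sham. Pdzd2 differed among injured groups (adjusted p 0.00184), with 1108 to 1348 CPM in MIRI+AICAR, 1701 to 1881 CPM in MIRI and 1722 to 2210 CPM in MIRI+Compound C, against 2278 to 2723 CPM in Sham. The test among injured groups called 65 host genes (1.76%).

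The host genes were also read by groups of known function, against 54.6% of all 3699 tested host genes higher and a median log2 fold change of 0.04. Over all 6886 host genes with a count in some library, 60.7% had a higher mean in injured hearts. None of the lists held a gene called in the pooled test. Genes of the extracellular matrix and of fibroblasts leaned upward. Of 38 listed genes 27 had a count, and the mean was higher in injured hearts for 24 of these and lower for 3. Of the 17 that were deep enough to test all were higher, with a median log2 fold change of 1.07. An unadjusted p under 0.05 was met by 7 of these, against 5.49% of all tested host genes higher at that threshold. Among the 17 were Col3a1 and Adam12, with 2 Sham counts each, and 3 genes without a Sham count. Such genes passed the filter through the injured libraries alone, so the 17 of 17 and the 7 are no support for a difference. Since 3 of the 17 (Fn1, Col1a1 and Col1a2, of fibronectin and type I collagen) were listed at 0 in all Sham libraries, the median with these at their bound was 0.20. The list also moved with single libraries. Its median was 0.40 without MIRI replicate 1, 0.68 without MIRI replicate 2, 0.44 without MIRI replicate 3 and 0.49 without MIRI+Compound C replicate 4. It was 0.56 without Sham replicate 1 (17 of 21 tested genes higher), 1.82 without Sham replicate 2 (18 of 21) and 0.63 without Sham replicate 3 (16 of 21). In thinned libraries 12 of 16 were higher.

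Col3a1, the fibrillar collagen gene of young scar, had 210 and 24.0 CPM in 2 MIRI libraries and 0 in MIRI replicate 1, 110 to 188 CPM in MIRI+AICAR libraries and 17.3 to 216 CPM in MIRI+Compound C libraries, against 0, 0 and 12.8 CPM in Sham. On 273 counts in injured and 2 in Sham libraries, the ratio was 25.6, with a counting interval of 7.02 to 212 (exact, 95%). Adam12 had a ratio of 14.4 (3.93 to 120) on 154 counts in injured and 2 in Sham libraries. Runx1, a transcription factor of blood and of activated fibroblasts, averaged 150 ± 68.8 CPM in injured hearts (SD, n = 13) and 70.6 ± 10.8 CPM in Sham hearts (SD, n = 3). Its highest value of 318 CPM was in MIRI replicate 1. Ltbp1, of a TGF-beta binding protein, averaged 805 CPM in injured and 737 CPM in Sham hearts, and Fbn1, of fibrillin, 40.2 CPM in injured and 39.5 CPM in Sham hearts. The summed level of the list was 1335 to 2443 CPM in injured libraries and 1103 to 1530 CPM in Sham libraries, with 11 of 13 injured libraries above all Sham.

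Leukocyte genes were higher in injured hearts for all 18 that could be tested, of 34 listed. Of 23 with a count the mean was higher for 21 and lower for 2. The median log2 fold change was 0.49. An unadjusted p under 0.05 was met by 6, against 5.49% of all tested host genes higher at that threshold. Among the 6 was Itgam, which had 2 Sham counts and passed the filter through the injured libraries alone. Its p-value is no support for a difference. By group the list median against Sham was 0.61 in MIRI, 0.65 in MIRI+AICAR and 0.24 in MIRI+Compound C. The summed level was 3494 to 5901 CPM in injured and 2465 to 3897 CPM in Sham libraries, with 10 of 13 injured above all Sham. In MIRI+Compound C libraries it was 3494 to 4051 CPM. Adgre1, the gene of the macrophage antigen F4/80, had 941 to 1883 CPM in injured libraries with a median of 1395 CPM, against 696, 1170 and 924 CPM in Sham, with 11 of 13 injured libraries above Sham and an adjusted p of 0.281. Itgam, the integrin alpha chain of myeloid cells, had a ratio of 11.8 (3.20 to 98.6) on 126 counts in injured and 2 in Sham libraries. Cd84, a receptor of leukocytes and platelets, averaged 105 ± 67.0 CPM in injured hearts (SD, n = 13) and 21.7 ± 22.3 CPM in Sham hearts (SD, n = 3), with its highest value, 298 CPM, in MIRI replicate 1. The general leukocyte gene Ptprc had 2 counts in all, and the macrophage receptor gene Csf1r had none. Without MIRI replicate 1 and MIRI+AICAR replicate 5 the list was still higher for 18 of 18 genes with a median of 0.37, and the matrix list for 19 of 20 with a median of 0.64.

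**Figure D4:**
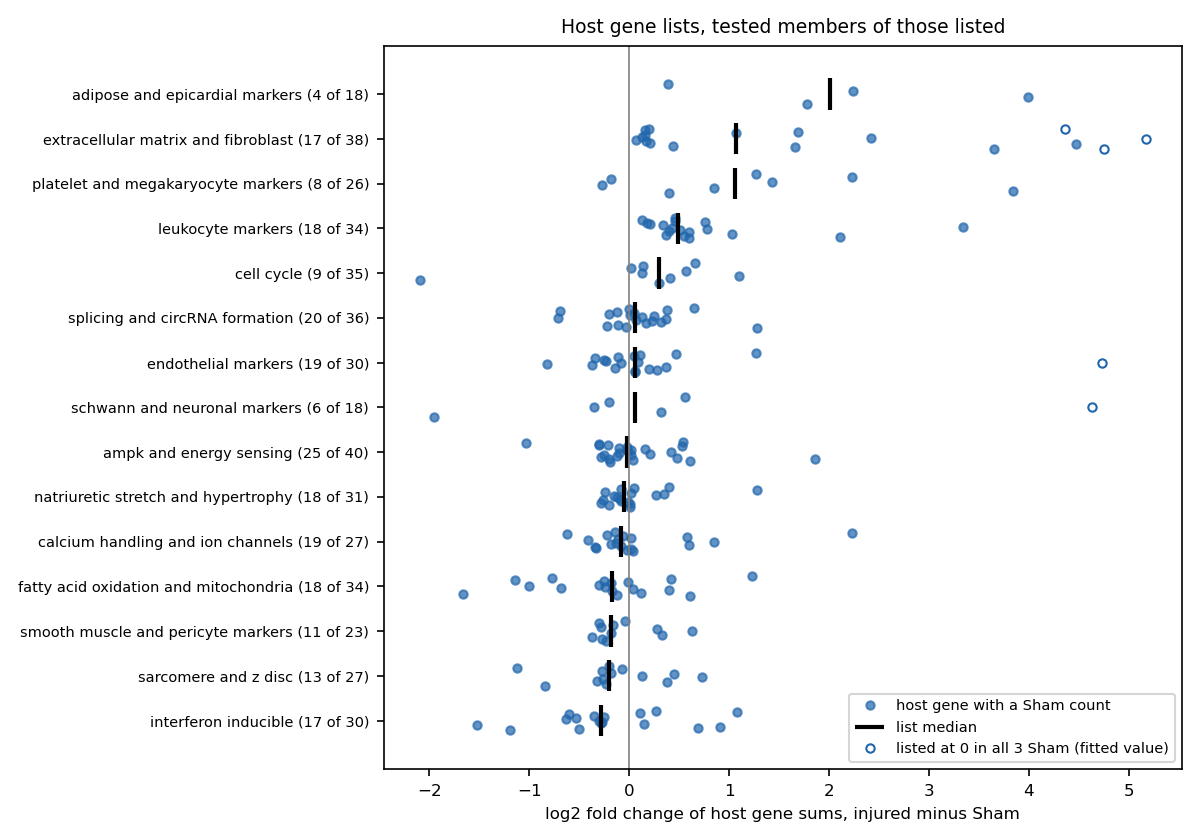
Log2 fold change of host gene sums, injured minus Sham, for the tested members of 15 lists, with the numbers tested and listed in brackets. Points are genes, open where Sham was listed at 0 and the fitted value depends on the prior count, and bars are list medians. All 17 matrix and all 18 leukocyte points lie above 0, and the interferon list has a median of -0.28.

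The platelet and megakaryocyte list had 6 of 8 tested genes higher and a median of 1.06, which was 0.32 without the 2 libraries that stood apart and 0.47 without MIRI replicate 1 alone. Itgb3, the platelet integrin beta chain, had 1252 CPM in MIRI replicate 1 and 252 CPM in MIRI+AICAR replicate 5, and 22.1 to 76.6 CPM in the other injured libraries, against 34.4, 0 and 0 CPM in Sham. The adipose and epicardial list, with 4 tested of 18, had all 4 higher (Bnc2, Aldh1a2, Muc16 and Pparg), a median of 2.01 (1.31 without Sham replicate 1 and 3.45 without Sham replicate 2) and a summed level of 401 to 848 CPM in injured libraries, all above the 283 to 347 CPM of Sham. In this list Bnc2 and Muc16 reached the filter's minimum count of 5 in no Sham library, so 4 of 4 higher is no support for a difference. The list's defining fat genes Adipoq and Plin1 had no counts. Epicardial Wt1 and Msln had 16 and 9 counts over injured libraries and none in Sham.

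Cell cycle genes were higher for 8 of 9 tested, with a median of 0.30, which was 0.14 without Sham replicate 3. The summed level of this list was highest in the 2 libraries that stood apart, at 4284 CPM in MIRI replicate 1 and 4501 CPM in MIRI+AICAR replicate 5, against 2777 to 3633 CPM in the other injured libraries and 2576 to 3461 CPM in Sham libraries. Without these 2 libraries 7 of 9 genes were higher, with a median of 0.20. Diaph3, an actin nucleator of dividing cells, averaged 115 CPM in injured and 55.4 CPM in Sham hearts (unadjusted p 0.0313). Ccnd3, a cyclin gene, went the other way, with 17.7 CPM in injured and 75.9 CPM in Sham hearts (unadjusted p 0.0237). Its Sham values ran from 25.5 to 155 CPM, and its injured mean lay under the floor of 21.8 CPM for host gene sums. In the list of splicing and circRNA formation 13 of 20 were higher, with a median of 0.06. The largest difference there was in Celf2, an RNA-binding splicing regulator, at 145 ± 44.3 CPM in injured hearts (SD, n = 13) and 61.7 ± 46.7 CPM in Sham hearts (SD, n = 3), with an edgeR adjusted p of 0.249.

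By list median, muscle and mural genes leaned downward by small amounts. Of 13 tested sarcomere and Z-disc genes 9 were lower and 4 higher, with a median of -0.20, and the summed level was 11095 to 16939 CPM in injured libraries and 14963 to 18080 CPM in Sham libraries. Titin itself averaged 8747 CPM in injured and 10047 CPM in Sham hearts (log2 fold change -0.20). Pdlim5, a Z-disc adaptor, had a log2 fold change of -0.28 and an unadjusted p of 0.0115. Without Sham replicate 1 the list split evenly, with 7 of 14 lower and a median of -0.06, and without Sham replicate 2 the median was -0.36. Fatty acid oxidation and mitochondrial genes were lower for 12 of 18 with a median of -0.17, which was 0.02 without Sham replicate 2. Acsl1, which activates fatty acids, averaged 13.8 CPM in injured and 45.4 CPM in Sham hearts (unadjusted p 0.0452). Sucla2, of a citric acid cycle enzyme, went the other way, at 51.9 CPM in injured and 21.2 CPM in Sham hearts (unadjusted p 0.0297). Sucla2 reached the filter's minimum count of 5 in no Sham library, and Acsl1 would not have passed the filter without the Sham libraries. Neither p-value is support for a difference. Smooth muscle and pericyte genes were lower for 8 of 11 with a median of -0.18, and -0.08 without Sham replicate 3. Calcium handling genes were lower for 12 of 19 with a median of -0.08, and -0.03 without Sham replicate 1. The summed level of this list went the other way, at 30691 to 46251 CPM in injured libraries and 35510 to 37294 CPM in Sham libraries. Of 13 injured libraries 11 lay above all Sham and 2 below. The sodium-calcium exchanger gene Slc8a1 had the highest mean of that list in injured hearts, but not in Sham hearts. It averaged 12029 ± 3384 CPM in injured hearts (SD, n = 13) and 8059 ± 1670 CPM in Sham hearts (SD, n = 3), a log2 fold change of 0.58 with an adjusted p of 0.407. Endothelial genes were higher for 11 of 19 (median 0.06), those of hypertrophy for 8 of 18 (median -0.05), those of AMPK and energy sensing for 11 of 25 (median -0.02), and Schwann and neuronal genes for 3 of 6 (median 0.06). Except for hypertrophy, these medians, and that of splicing, changed sign when 1 or another library was left out, and that of hypertrophy ran from -0.08 to -0.01. Of the erythroid list only Xpo7 could be tested, at -0.16.

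Interferon-inducible genes had unlike levels in the 3 injured groups. Pooled, 11 of 17 tested genes were lower and 6 higher, with a median of -0.28. It was -0.12 without Sham replicate 2 (10 of 18 lower) and -0.47 without Sham replicate 3. The summed level was 2348, 2270 and 2620 CPM in MIRI libraries and 2634 to 2861 CPM in MIRI+AICAR libraries, but 4091 to 6467 CPM in MIRI+Compound C libraries, against 4106, 6162 and 5629 CPM in Sham. All MIRI and MIRI+AICAR libraries were below all Sham libraries, and the MIRI+Compound C libraries spanned the Sham range. The list medians against Sham were -0.80 in MIRI, -0.54 in MIRI+AICAR and 0.16 in MIRI+Compound C. Ddx60 sums (adjusted p among injured groups 8.59e-07), Stat2, a transducer of interferon signals (0.000889), and Dtx3l, a ubiquitin ligase of the same response (0.00451), each differed among the injured groups. The sarcomere sums were 11095 to 14445 CPM in MIRI+AICAR, 11247 to 14777 CPM in MIRI and 14474 to 16939 CPM in MIRI+Compound C libraries. No test was made of these sums.

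**Figure D5:**
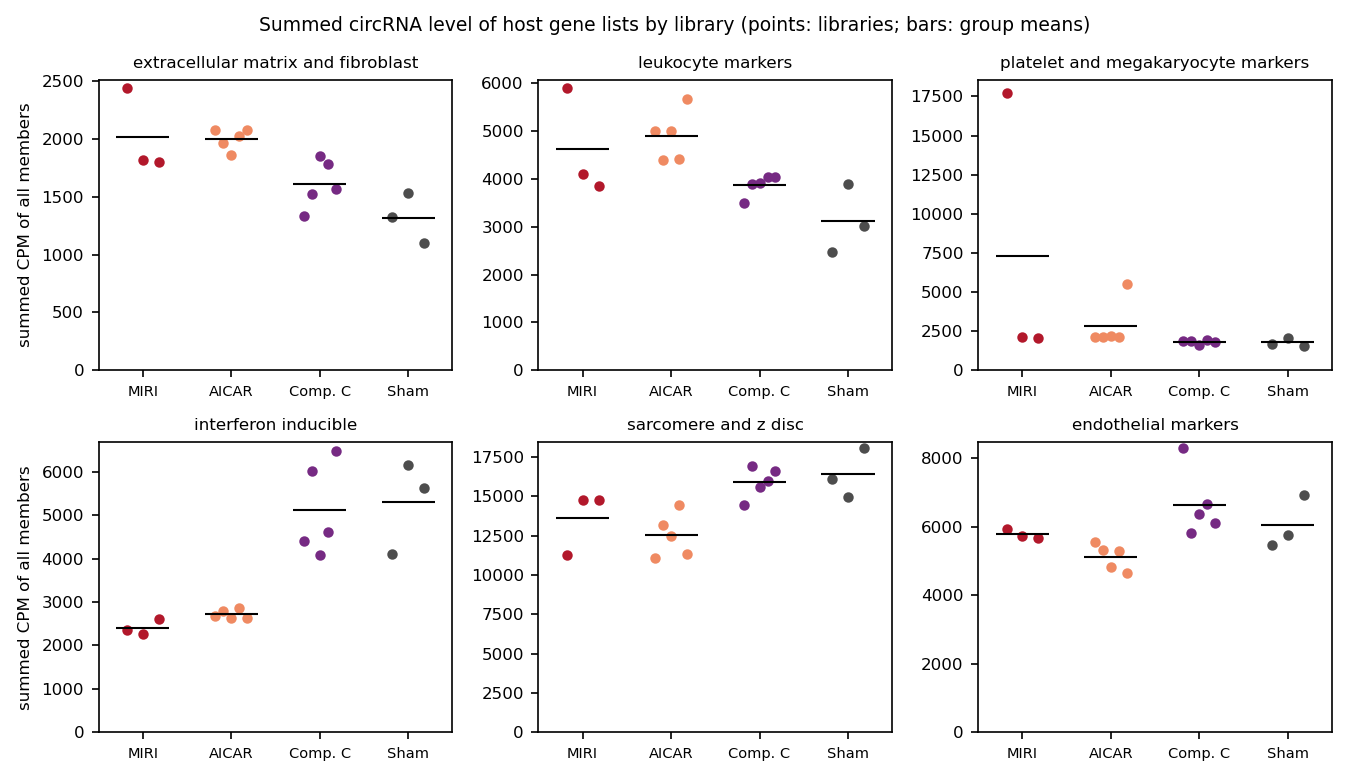
Summed CPM of all members of 6 host gene lists in the 3 MIRI, 5 MIRI+AICAR, 5 MIRI+Compound C and 3 Sham libraries. Points are libraries and bars are group means. Interferon sums end at 2861 CPM in MIRI and MIRI+AICAR and begin at 4091 CPM in MIRI+Compound C and 4106 CPM in Sham, and the platelet panel has 1 MIRI library at 17743 CPM.

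Properties of the whole circle population were compared by an exact two-sided permutation test over all 560 ways to choose the Sham labels, with adjustment over 8 measures, and none passed. After thinning to 119948 counts, 13200 ± 1208 circRNAs were detected in injured libraries (SD, n = 13) and 11765 ± 911 in Sham libraries (SD, n = 3), with an exact p of 0.0821 and an adjusted p of 0.276. MIRI+AICAR libraries, the deepest on average, had the most, 14249 ± 661 (SD, n = 5). Thinning made single counts in deeper libraries, which the table never holds, so this measure may still follow depth. With at least 2 thinned counts the range was 10429 to 11220 circRNAs in injured and 10547 to 10874 in Sham libraries. The mean spliced length of exonic circles was 743 ± 21.3 bases in injured and 714 ± 27.8 bases in Sham libraries (exact p 0.0821, adjusted p 0.276). Exonic circles made up 95.4% of counts in injured and 95.3% in Sham libraries (adjusted p 0.286).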

How the data were processed

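CircRNAs were sequenced from mouse hearts. Per the labels' protocols, DNA and ribosomal RNA were removed, RNase R digested the linear RNA, and stranded dUTP libraries were read as DNA nanoballs. Per the file headers, the deposited back-splice junction counts of each library came from CIRI, with no normalization. Not given in the sources used here are the aligner, the CIRI version and its minimum of reads. The submitters' processing notes name mm9, but of 35293 exonic circRNAs 96.5% of starts and 96.3% of ends fell on exon boundaries of GENCODE M21 (GRCm38), against 0.32% of starts moved by 1 base, so coordinates are on GRCm38.

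CircRNAs were kept by filterByExpr over the 4 groups (minimum count 5, minimum total 15), scaled by TMM and tested with edgeR 4.0.16 (quasi-likelihood F test, two-sided, Benjamini-Hochberg adjusted p under 0.05) in R 4.3.3, with 13 injured libraries as 1 group against 3 Sham libraries. A fit of the 4 groups gave each group against Sham and the difference among injured groups. Each SE was derived from the test, as the absolute log2 fold change divided by the square root of F. The comparisons of the injured groups share the Sham libraries. Counts were also summed by host gene. A circle with no annotated host (181 of those tested) entered no sum. The test was checked on simulated data. Alternatives used limma 3.58.1, DESeq2 1.42.0, other scalings and filters, thinning, a replicate block and left-out libraries. Figures and exact tests used Python 3.11.15 with SciPy 1.17.1 and matplotlib 3.10.9.

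Total counts, 119948 to 240889 per library, set the precision. Floors and intervals cover counting error only. Named circRNAs were the 8 with the smallest p in each direction (where fewer than 8 were called), 4 in each direction with the smallest value of the largest p over the 3 injured groups, and, added after seeing values, the call of the equal-weight fit. Named host genes were 5 in each direction and up to 3 of each list. The injured grouping, the 16 gene lists and these rules were chosen with earlier results of these data known.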

Additional observations from a re-analysis of the deposited data

Results flagged for a closer look

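Values in groups of 5 libraries were checked for a library far from the others. Of 162 groups of named circRNAs, named host genes and library measures 12 had one, against about 5% by chance. In MIRI+AICAR replicate 5 the host gene sums of Pde5a (1647 CPM), Trpc6 (1196 CPM), Itgb3 (252 CPM) and Cdk14 (359 CPM) were far above the other 4 MIRI+AICAR libraries, and that of Mecom (193 CPM) was far below. The first 3 are members of the platelet and megakaryocyte list. MIRI replicate 1, in a group too small for this check, had still higher sums of that list. In MIRI+AICAR replicate 4, Xpo7 (388 CPM) was far above, and Ccnd3 had 12.9 CPM, near the floor, against 0 in the other 4 MIRI+AICAR libraries. Cpeb3 (2315 CPM) was far below in MIRI+AICAR replicate 3, and the Snx13 circle (88.1 CPM) was far above in MIRI+AICAR replicate 2. In MIRI+Compound C replicate 3, Actn2 (127 CPM) was far above and Tpm1 (16.6 CPM) far below, and Stat2 (682 CPM) was far above in MIRI+Compound C replicate 5.

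Differences among MIRI, MIRI+AICAR and MIRI+Compound C passed edgeR's quasi-likelihood test for these named circRNAs and host genes. The adjusted p was 1.70e-06 for the Ddx60 circle and 8.59e-07 for the Ddx60 host gene sum, 0.0113 for the Cpeb3 circle and 0.0238 for the Cpeb3 sum. It was 0.000889 for the Stat2 sum, 0.00451 for the Dtx3l sum, 0.00184 for the Pdzd2 sum and 0.0113 for the Glis3 sum. For the platelet list members Itgb3, Trpc6 and Pde5a it was 0.0113, 0.00782 and 0.0113, with MIRI replicate 1 the highest library for each.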

How the results depend on the processing

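The pooled test called no circRNA and no host gene, and this held with RLE size factors, total count scaling, voom, a minimum count of 10 and thinned libraries. DESeq2 called 2 circRNAs and 2 host genes. With no filter 53 circRNAs and 38 host genes were called, and 4 circRNAs the same way in each injured group against none with the filter. Equal weight to each injured group gave 3 circRNAs and 10 host genes. Leaving out MIRI replicate 1 and MIRI+AICAR replicate 5 together gave 0 circRNAs and 5 host genes. With MIRI left out 6 circRNAs and 4 host genes were called, with MIRI+AICAR left out none, and with MIRI+Compound C left out 4 circRNAs and 27 host genes. Leaving out 1 library gave 0 to 6 circRNAs, 6 without MIRI replicate 1 (Glis3, Snx13, Adam12, Csf2rb2, Pik3c2a and Slc10a7) and 2 without Sham replicate 3, and 0 to 7 host genes, 7 without MIRI replicate 1, 2 without MIRI+Compound C replicate 2 and 1 without Sham replicate 3. Without MIRI replicate 1, all of the called circles but that of Glis3 had passed the filter through the injured libraries alone. Where a group of 3 loses a library the filter asks for fewer libraries, so more circRNAs are tested (9241 to 9319 against 7917). The 28 circRNAs that differed among injured groups became 61 with DESeq2, 16 with voom, 140 with no filter and 9 to 63 with 1 library left out. Complete separation held for 22 circRNAs above and 15 below at a minimum count of 10, of fewer tested. The cause was not tested for the other changes.

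Of the circRNAs with an unadjusted p under 0.05, 70.3% were higher in injured hearts, 57.1% at a minimum count of 10, 36.4% with no filter and 37.0% with voom. The direction turned for host gene Tpm1 without Sham replicate 1 (leave-one-out log2 fold changes from -1.66 to 0.13) and for the intergenic share of counts, whose leave-one-out differences ran from -0.106 to 0.031 percentage points. Leave-one-out settings left the other library summaries on the same side of their thresholds.

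Over 20 same-numbered pairs of libraries the correlation of deviations from group means ran from -0.022 to 0.076 and none was over 0.1. The highest values, 0.076, 0.066 and 0.053, were between libraries numbered 1. Pairs of unlike number were not compared, so this check cannot settle whether replicate numbers pair the libraries. With a replicate block the pooled test still called 0 circRNAs and 0 host genes, with 441 circRNAs at an unadjusted p under 0.05 against 559, and calls against Sham were 3 for MIRI, 33 for MIRI+AICAR and 0 for MIRI+Compound C. Depth limits the circles listed at 0 in Sham, where 3 counts are 22.9 CPM, against means of 29.0 to 43.7 CPM in injured hearts for the named ones.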
